A study of Mus musculus with 4 samples.

Results

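Among the genes listed as changed after knockdown of *Rhox6* in mouse embryonic stem cells (mESCs), the transcription factor genes with names of the zinc finger, homeobox and related families were examined. A gene was a member when its name began with a family symbol such as Zfp, Zbtb, Zscan, Hox, Nkx, Pou, Fox, Sox, Tbx, Bhlh, Hes, Runx, Nfi or Maf. *Tbx3*, *Klf4*, *Prdm14*, *Nr5a2*, *Pax6*, *Sox1*, *Sox3* and *Gata6* were left out by this rule. Of 920 genes in the table, 47 carried such a name, and 39 remained as members. The rule takes names and not functions, so the members included the noncoding transcripts *Sox2ot* and *Tbx3os1*, the RNA-binding protein gene *Zfp36* and the corepressor gene *Runx1t1*.

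The cells were 46C mESCs. The control group of 2 libraries was infected with *scramble* control lentivirus and the knockdown group of 2 libraries with *Rhox6* shRNA lentivirus. Both groups were kept in medium with serum and collected with Trizol after 24 h. The sample labels name no LIF for these cells and do not say which hairpin a library carried or whether libraries came from separate cultures, so the p-values rest on a spread between libraries that may be only technical. The knockdown acted on a population infected with virus. None of the 920 rows carried the name *Rhox6*, so its level was not analysed here. The labels were therefore not checked by the targeted gene. Of 11 markers of mESCs, only *Nanog* was among the rows (125.72 and 126.54 in *scramble*, 314.24 and 331.47 in *Rhox6* shRNA cells), so the cell type was not checked further.

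Each row holds a normalized expression level in a unit that is not named, and no read counts were used, so the depth is unknown. The submitters had listed these genes for their difference between the same 4 libraries. Tests on them therefore describe rows already picked for a change and give no independent evidence of one. Levels were compared as log2(level + 1) with limma over all 920 rows, and a gene was said to have risen or fallen when its Benjamini-Hochberg adjusted p was under 0.05. Low genes look less changed on this scale than in ratios, so ratios of mean levels are given for some members, and an order of sizes given in log2 differences holds for this scale only. With a pseudocount of 0.1, low genes had far larger differences (*Hoxa10* 3.45 in place of 1.26, *Gata3* 2.98 in place of 0.81, *Tbx20* 2.74 in place of 0.85 and *Foxa1* 1.89 in place of 0.57). With 2 libraries in each group, the smallest two-sided p of an exact permutation test is 0.333. In these bulk samples, fewer cells expressing a gene and less RNA per cell cannot be told apart.

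Transcription factors bind short DNA motifs through a folded domain, and families are named after that domain. C2H2 zinc fingers read DNA in tandem arrays, and many Zfp proteins also carry a KRAB domain that recruits silencing machinery to transposable elements. Homeodomain proteins, the class to which Rhox6 itself belongs, recognise motifs with a TAAT core and pattern the body axis and the nervous system. Basic helix-loop-helix (bHLH) proteins bind E-boxes as dimers, and bZIP proteins such as the small Maf factors also act as dimers. In undifferentiated mESCs, many genes of these families that act in later lineages are held at low levels with Polycomb marks on their promoters.

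The RefSeq promoter windows of 3 members are shown because they belong to the member with the largest rise on the log2(level + 1) scale and to falling members of the bHLH and immediate-early groups. Each is the 250 bases before the annotated start on GRCm38.p6, written 5′ to 3′ on the gene's strand. Capitals mark matches on either strand to the motifs searched. These were the homeodomain core TAAT and the E-box CACGTG. The core of the hypoxia response element, ACGTG, was searched too, and it lies within that E-box. The others were the CCAAT box, the composite C/EBP-ATF element TGATGNAA and the CArG box bound by serum response factor. *Nkx2-9* is at chr12:56613285-56613534 on the minus strand, *Bhlhe41* at chr6:145865421-145865670 on the minus strand and *Zfp36* at chr7:28379229-28379478 on the minus strand.
Nkx2-9: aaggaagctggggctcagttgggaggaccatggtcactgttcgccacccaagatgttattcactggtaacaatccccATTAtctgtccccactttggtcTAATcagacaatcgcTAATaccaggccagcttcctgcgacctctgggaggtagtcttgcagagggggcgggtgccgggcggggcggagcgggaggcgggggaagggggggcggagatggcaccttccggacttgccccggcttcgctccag
Bhlhe41: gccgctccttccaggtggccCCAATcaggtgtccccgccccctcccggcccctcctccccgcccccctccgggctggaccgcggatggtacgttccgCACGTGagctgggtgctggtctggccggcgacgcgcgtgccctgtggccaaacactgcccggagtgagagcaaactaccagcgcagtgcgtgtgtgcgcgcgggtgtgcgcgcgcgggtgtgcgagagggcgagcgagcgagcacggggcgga
Zfp36: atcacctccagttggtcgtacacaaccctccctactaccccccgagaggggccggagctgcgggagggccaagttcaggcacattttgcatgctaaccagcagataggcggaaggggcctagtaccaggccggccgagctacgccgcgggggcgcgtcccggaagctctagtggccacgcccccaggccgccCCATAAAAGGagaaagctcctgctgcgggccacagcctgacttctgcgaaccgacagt
The *Nkx2-9* window held TAAT 3 times, the *Bhlhe41* window held CACGTG once and CCAAT once, and the *Zfp36* window held 1 CArG box. These windows were picked by hand, and others of the same groups differed. The windows of *Maff* held no CArG box, and that of *Bhlha15* held none of the motifs. The other member with a CArG box was *Nfix*, which rose. Of the 39 members, 25 were matched in the promoter table.

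TAAT was in a window of 4 of the 7 matched homeobox members and of 13 of all 25 matched members, against 54.9% of the 32851 windows in the table. CACGTG was found for 4 of the 25 members (6.02% of windows), ACGTG for 7 (16.6%), CCAAT for 10 (33.8%), the CArG box for 2 (1.47%) and TGATGNAA for 0 (3.45%). The 25 members had 39 windows together and were counted when any of their windows held the letters, so their shares are not on the same footing as those of single windows. A match is a description of the letters and not a binding site.

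Of the 39 members, 25 rose and 12 fell in *Rhox6* shRNA mESCs, and 2, *Runx1* and *Zfp521*, did not pass. Over all 920 rows, 53.7% rose and 42.9% fell by the same test, so most of the listed genes were called in either direction. The median difference of log2(level + 1) was 0.743 over the members and 0.564 over all rows. The median size of the difference was 0.838 for the members and 0.978 for all rows. The pair of knockdown libraries lay above the *scramble* pair for 25 members and below it for 12, against 54.1% and 44.2% of all rows, and the groups overlapped for the other 2, against 1.63%.

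**Figure D1:**
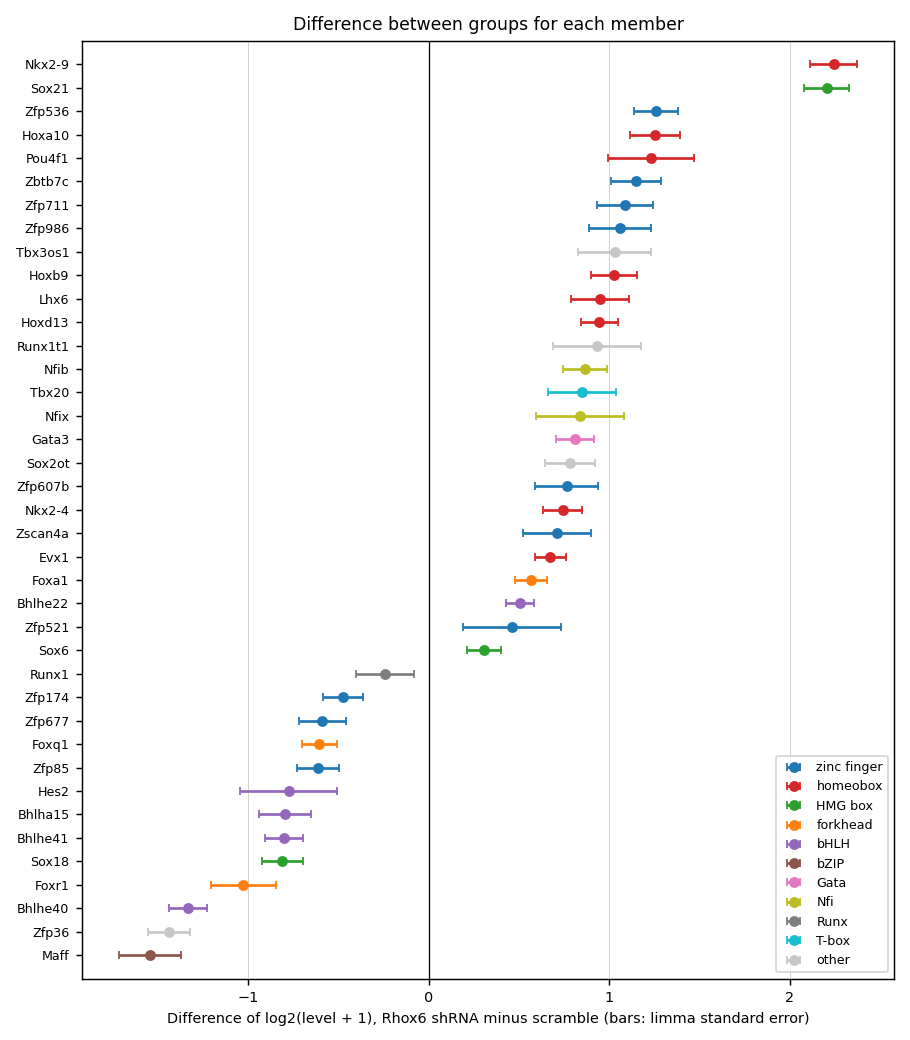
Difference of log2(level + 1), *Rhox6* shRNA minus *scramble*, for each of the 39 members, with points coloured by class and bars showing the limma standard error. *Nkx2-9* and *Sox21* stand at 2.24 and 2.20, apart from the other rising members, and *Maff*, *Zfp36* and *Bhlhe40* are at the lower end, from −1.54 to −1.33.

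Levels of the members were mostly low. Both group means were below 1 for 9 of the 39 (23.1%), against 10.2% of all rows. The median level of the members was 0.9 in *scramble* and 1.48 in *Rhox6* shRNA cells, against 2.38 and 2.49 over all rows. The mean *scramble* level was below 1 for 20 of the 39 members (51.3%) and for 27% of all rows. Of the 25 members that rose, 16 started from a mean *scramble* level below 1, and of the 12 that fell, 7 ended below 1 in *Rhox6* shRNA cells. Only *Bhlhe40*, *Maff*, *Zfp986* and *Sox21* had a mean level above 10 in either group.

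**Figure D2:**
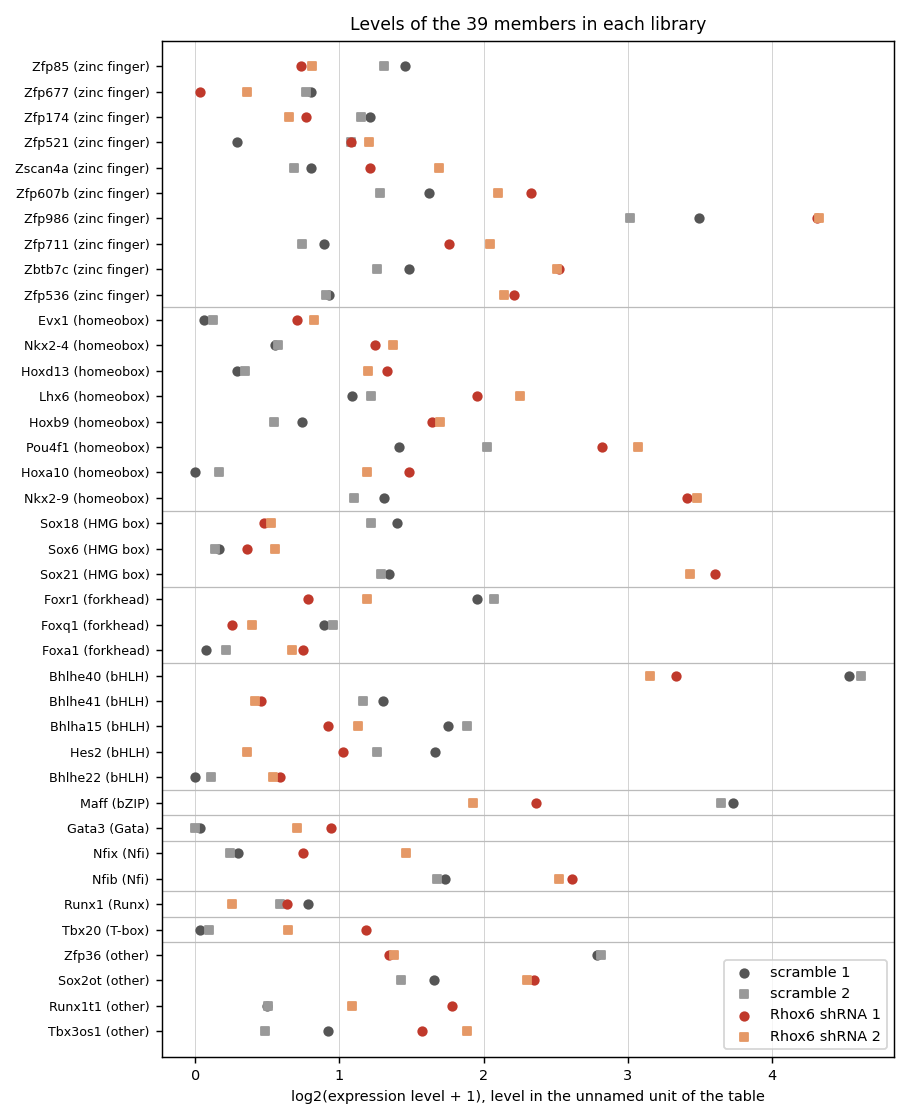
Levels of the 39 members in each of the 4 libraries on a log2(level + 1) axis, grouped by class and ordered by the difference within a class, with grey points for *scramble* and red and orange points for *Rhox6* shRNA libraries. In the homeobox class the *Rhox6* shRNA libraries lie to the right of both *scramble* libraries for the 8 members, and for *Bhlhe40*, *Bhlhe41*, *Bhlha15*, *Hes2*, *Maff* and *Zfp36* they lie to the left.

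The 8 homeobox members rose, beside 53.7% of all rows. All 8 listed genes of the Hox, Nkx, Pou, Evx and Lhx families were higher in *Rhox6* shRNA cells, with log2 differences of 0.67 to 2.24 and a median of 0.988. The rise of these 8 was kept in each of the 10 alternative analyses that held them, and 7 of the 8 had a level high enough to enter the analysis of genes with a mean of at least 1 in either group. GENCODE M21 annotates 106 protein-coding genes with homeobox names of the rule, so the 8 are a small part of the class, and the others were not analysed here.

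*Nkx2-9*, an NK2 homeobox gene of the ventral neural tube, had the largest rise of the members on the log2(level + 1) scale, though not with a pseudocount of 0.1 (2.84, against 3.45 for *Hoxa10* and 2.98 for *Gata3*). It was measured at 1.48 and 1.14 in *scramble* and at 9.63 and 10.19 in *Rhox6* shRNA cells. The libraries of a group were close, and the groups were far apart. Mean levels differed 7.56-fold, with a log2 difference of 2.24 ± 0.13 (standard error) and a limma adjusted p of 0.000208. *Nkx2-4*, a related gene of the developing hypothalamus and thyroid region, was at 0.47 and 0.49 and rose to 1.37 and 1.59, a log2 difference of 0.74. Both NK2 genes thus had separate groups, *Nkx2-4* at levels near 1.

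The 3 Hox members came from 3 of the clusters that specify position along the body axis, and each belongs to the posterior genes of its cluster. *Hoxa10* was at 0 and 0.12 in *scramble* and at 1.8 and 1.28 in *Rhox6* shRNA cells. *Hoxb9* was at 0.67 and 0.46 against 2.12 and 2.24, and *Hoxd13* was at 0.22 and 0.27 against 1.51 and 1.29. All 3 were below 1 in both *scramble* libraries and above 1 in both *Rhox6* shRNA libraries. Their log2 differences were 1.26, 1.03 and 0.95 (3.45, 1.80 and 2.12 with a pseudocount of 0.1, which changes their order), with limma adjusted p of 0.000976, 0.0013 and 0.000947. *Evx1*, the even-skipped homologue next to the Hoxa cluster, rose from 0.04 and 0.09 to 0.63 and 0.77, so it stayed below 1 in all 4 libraries. *Evx1* overlaps the antisense gene *Evx1os* in GENCODE M21, and strand-specific counting is not stated, so reads of the pair cannot be told apart.

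*Pou4f1* encodes Brn3a, a POU homeodomain factor of sensory neurons. Its levels were 1.66 and 3.06 in *scramble* and 6.08 and 7.42 in *Rhox6* shRNA cells. The *scramble* libraries differed by 0.61 on the log2(level + 1) scale, the largest gap among the homeobox members, and the groups stayed separate. The log2 difference was 1.23 ± 0.24 (SE, limma adjusted p = 0.00476). *Lhx6*, a LIM homeobox gene of forebrain interneurons, rose from 1.12 and 1.33 to 2.87 and 3.76, a log2 difference of 0.95.

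Homeobox genes outside the member names did not all move the same way. Among the listed homeobox genes picked by name from the other transcription factors and the genes left out, *Nanog*, *Meis1*, *Meis2*, *Msx2*, *Vax2* and *Pax6* rose, and *Rhox5* and *Phox2a* fell. *Phox2a*, an autonomic neuron factor, was at 2.95 and 2.9 in *scramble* and at 1.51 and 1.17 in *Rhox6* shRNA cells. The shared direction of the 8 members is therefore a count over these names, and not over all listed homeodomain genes. These genes were grouped as homeobox genes after their values were seen.

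Of 10 C2H2 zinc finger members, 6 rose, 3 fell and *Zfp521* did not pass, with a median log2 difference of 0.737. These shares were near those of all rows, of which 53.7% rose and 42.9% fell. GENCODE M21 annotates 497 protein-coding zinc finger names of the rule, and 9 of them were members. The tenth, *Zscan4a*, is an unprocessed pseudogene there.

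*Zfp536*, a zinc finger gene expressed mainly in brain, had the largest rise of the class. It was at 0.9 and 0.87 in *scramble* and at 3.63 and 3.41 in *Rhox6* shRNA cells, with a log2 difference of 1.26 (standard error 0.12, limma adjusted p = 0.000691). *Zbtb7c*, which encodes a BTB domain protein, rose from 1.79 and 1.4 to 4.76 and 4.71. The X-linked *Zfp711* rose from 0.86 and 0.67 to 2.39 and 3.13. These 3 genes had separate groups, with ratios of mean levels of 3.98, 2.97 and 3.61. *Zfp711* is the only member on chromosome X.

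*Zfp986* had the highest level of the zinc finger members. It was at 10.29 and 7.11 in *scramble* and at 18.86 and 19.06 in *Rhox6* shRNA cells, a log2 difference of 1.06. The *scramble* libraries were 0.48 apart on this scale, whereas the *Rhox6* shRNA libraries were nearly equal. *Zfp607b* rose from 2.07 and 1.43 to 4.03 and 3.28. Its call was lost without *scramble* replicate 2 (log2 difference 0.60, limma adjusted p = 0.0501) and without *Rhox6* shRNA replicate 1 (0.65, limma adjusted p = 0.0520). *Zfp986* and *Zfp607b* belong to families with close copies, so the share of reads given to each copy is uncertain.

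*Zscan4a* belongs to the Zscan4 cluster, whose members mark the transient 2-cell-like state of mESCs and are nearly identical in sequence. Its levels were 0.74 and 0.61 in *scramble* and 1.32 and 2.23 in *Rhox6* shRNA cells, so both knockdown libraries were higher but not alike. The log2 difference was 0.71 ± 0.19 (SE, limma adjusted p = 0.0146), and it was 0.47 without *Rhox6* shRNA replicate 2. Without *scramble* replicate 1 or 2 the call was lost, at log2 differences of 0.77 and 0.65 with limma adjusted p of 0.0760 and 0.105. Reads of other Zscan4 copies could be counted here, and the value is uncertain for that reason too.

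The falling zinc finger members were *Zfp85*, *Zfp677* and *Zfp174*. *Zfp85*, a KRAB zinc finger gene on chromosome 13, was at 1.74 and 1.48 in *scramble* and at 0.66 and 0.75 in *Rhox6* shRNA cells. *Zfp677* went from 0.74 and 0.7 to 0.02 and 0.28, and *Zfp174*, a SCAN zinc finger gene, from 1.32 and 1.22 to 0.7 and 0.57. The groups were separate for the 3 genes, and they fell by 0.61, 0.59 and 0.47 on the log2(level + 1) scale. The call of *Zfp677* was lost without *scramble* replicate 1 or 2 (limma adjusted p = 0.0614 and 0.0547), and that of *Zfp174* without *Rhox6* shRNA replicate 2 (limma adjusted p = 0.0553). *Zfp85* and *Zfp174* overlap *Zfp85os* and *Zfp597* on the opposite strand, and reads of each pair cannot be told apart without strand.

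*Zfp521*, a regulator of neural and haematopoietic progenitors, was at 0.22 and 1.11 in *scramble* and at 1.11 and 1.31 in *Rhox6* shRNA cells. The *scramble* libraries differed by 0.79 on the log2 scale, more than the groups did (0.46, standard error 0.27, limma adjusted p = 0.153). Without *scramble* replicate 1 the log2 difference was 0.065, and without *scramble* replicate 2 it was 0.86 with a limma adjusted p of 0.0148. A single *scramble* library thus set the size of this difference.

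Of the SRY-box genes, *Sox21* and *Sox6* rose and *Sox18* fell. *Sox21*, which acts in neural progenitors and is switched on in some cells of the early embryo, was at 1.54 and 1.44 in *scramble* and at 11.17 and 9.81 in *Rhox6* shRNA cells. The log2 difference of this gene was 2.20 ± 0.12 (SE, limma adjusted p = 0.000198), close to that of *Nkx2-9*. *Sox18*, a factor of endothelial and lymphatic vessels, went from 1.64 and 1.33 to 0.39 and 0.44. On the log2(level + 1) scale it differed by −0.81, and the groups were separate.

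*Sox6* was at 0.12 and 0.1 in *scramble* and at 0.28 and 0.47 in *Rhox6* shRNA cells (log2 difference 0.31, ratio of mean levels 3.41). It lost its call without *scramble* replicate 1 or 2 (limma adjusted p = 0.0926 and 0.111) and without *Rhox6* shRNA replicate 2 (limma adjusted p = 0.0641). *Sox2ot*, a noncoding transcript whose gene contains *Sox2*, rose from 2.15 and 1.69 to 4.11 and 3.92, a ratio of mean levels of 2.09. *Sox2* lies on the same strand within *Sox2ot*, was not among the 920 rows, and was not analysed here.

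Forkhead genes differed in direction. *Foxa1*, a pioneer factor of endoderm, rose from 0.05 and 0.16 to 0.68 and 0.59, so all 4 libraries were below 1. *Foxq1* went from 0.86 and 0.94 to 0.19 and 0.31, also below 1 throughout. *Foxr1*, a forkhead gene with expression in germ cells, went from 2.87 and 3.21 to 0.72 and 1.28. The groups differed on the log2 scale by −1.03 ± 0.18 (SE, limma adjusted p = 0.00348).

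Of 5 bHLH members, *Bhlhe40*, *Bhlhe41*, *Bhlha15* and *Hes2* were lower in *Rhox6* shRNA cells and *Bhlhe22* was higher, beside 42.9% of all rows that fell and 53.7% that rose. Their median log2 difference was −0.795. *Bhlhe40* (Dec1) and *Bhlhe41* (Dec2) encode paired repressors of the circadian clock that bind E-boxes and are induced by low oxygen.

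*Bhlhe40* was at 22.17 and 23.61 in *scramble* and at 9.09 and 7.89 in *Rhox6* shRNA cells. The difference in log2(level + 1) was −1.33 ± 0.10 (SE, limma adjusted p = 0.000425), and *scramble* was 2.7 times as high. *Bhlhe41*, whose promoter window holds the CACGTG shown above, went from 1.47 and 1.24 to 0.37 and 0.33. Its mean level in *scramble* was 3.87 times that in *Rhox6* shRNA cells, with both groups at low levels. Both Dec genes thus had separate groups in the same direction.

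*Bhlha15*, which encodes Mist1, a factor of secretory cells, went from 2.37 and 2.7 to 0.89 and 1.19. Its log2 difference was −0.80 with separate groups. *Hes2*, a relative of the Notch effectors, was at 2.17 and 1.4 in *scramble* and at 1.03 and 0.28 in *Rhox6* shRNA cells. The *Hes2* libraries differed within both groups, and its call (log2 difference −0.77, limma adjusted p = 0.0355) was lost in 4 of the 10 alternatives. The log2 differences there were −0.57 and −0.98 without *scramble* replicate 1 or 2 (limma adjusted p = 0.214 and 0.0810), −0.44 when *Rhox6* shRNA replicate 2 was dropped (limma adjusted p = 0.1495) and −1.49 with a pseudocount of 0.1 (limma adjusted p = 0.0533). *Bhlhe22*, a neural bHLH gene, was at 0 and 0.08 in *scramble* and at 0.5 and 0.45 in *Rhox6* shRNA cells, a log2 difference of 0.50.

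*Maff* and *Zfp36* had the largest falls of the members on the log2(level + 1) scale, whereas the ratio of mean levels was larger for *Zfp677* (4.8) and *Bhlhe41* (3.87) than for either. *Maff* encodes a small Maf protein, which lacks an activation domain and pairs with other bZIP factors. Its levels were 12.27 and 11.56 in *scramble* and 4.14 and 2.81 in *Rhox6* shRNA cells. The *Rhox6* shRNA libraries differed by 0.43 on the log2 scale, far less than the group difference. Its log2 difference was −1.54 ± 0.17 (SE, limma adjusted p = 0.000971).

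*Zfp36* encodes tristetraprolin, which binds AU-rich elements in mRNAs through CCCH zinc fingers and promotes their decay, so it is no DNA-binding factor despite its name. It was at 5.9 and 6.03 in *scramble* and at 1.54 and 1.6 in *Rhox6* shRNA cells. The libraries of each group were almost equal, and *scramble* was 3.8 times as high. Its log2 difference was −1.44 ± 0.12 (SE, limma adjusted p = 0.000468). *Zfp36* overlaps *Gm44710* on the opposite strand.

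Both are immediate-early genes, which respond to growth factors within minutes. Of 29 immediate-early genes listed for this purpose, 6 were among the rows. *Maff*, *Zfp36*, *Junb* and *Ier3* fell, and *Klf4* and *Ccn1* rose, against 53.7% rising and 42.9% falling over all rows. *Junb* was at 16.42 and 15.97 against 5.98 and 7.19, and *Ier3* at 32.83 and 37.37 against 9.65 and 9.25. *Klf4* is also a naive pluripotency factor, and *Ccn1* is also a target of YAP.

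Smaller families followed. *Nfib* and *Nfix* encode nuclear factor I proteins of glial and lung development, and both rose. *Nfib* was at 2.32 and 2.2 in *scramble* and at 5.13 and 4.76 in *Rhox6* shRNA cells, a log2 difference of 0.87 (limma adjusted p = 0.00173). *Nfix* was at 0.23 and 0.18 against 0.68 and 1.76, so the knockdown libraries differed by 0.72 on the log2 scale. Its log2 difference was 0.84, and 0.48 without *Rhox6* shRNA replicate 2. The call of *Nfix* was lost without *scramble* replicate 1 or 2 (log2 differences 0.87 and 0.81, limma adjusted p = 0.115 and 0.133).

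*Gata3*, a factor of trophoblast and T cells, was at 0.02 and 0 in *scramble* and at 0.92 and 0.63 in *Rhox6* shRNA cells (log2 difference 0.81, limma adjusted p = 0.00147). *Tbx20*, a T-box gene of the heart, was at 0.02 and 0.07 against 1.27 and 0.56. Both genes were near 0 in *scramble* cells, where a fold change has little meaning. The call of *Tbx20* was lost without *scramble* replicate 1 or 2, at log2 differences of 0.81 and 0.88 with limma adjusted p of 0.0767 and 0.0654. *Gata3* also has genes on the opposite strand within it.

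*Runx1*, a master regulator of blood formation, overlapped between groups. Its levels were 0.72 and 0.5 in *scramble* and 0.55 and 0.19 in *Rhox6* shRNA cells, with a log2 difference of −0.24 (standard error 0.16, limma adjusted p = 0.189). Without *Rhox6* shRNA replicate 1 the difference was −0.43 and passed (limma adjusted p = 0.0414), without *Rhox6* shRNA replicate 2 it was −0.051, and without *scramble* replicate 1 it was −0.14. *Runx1t1*, which encodes the ETO corepressor found fused to RUNX1 in human leukaemia, was at 0.41 and 0.42 against 2.44 and 1.12. Its log2 difference was 0.93 with all libraries and 0.58 without *Rhox6* shRNA replicate 1. The call was lost without *scramble* replicate 1 or 2 (limma adjusted p = 0.0996 and 0.0972).

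**Figure D3:**
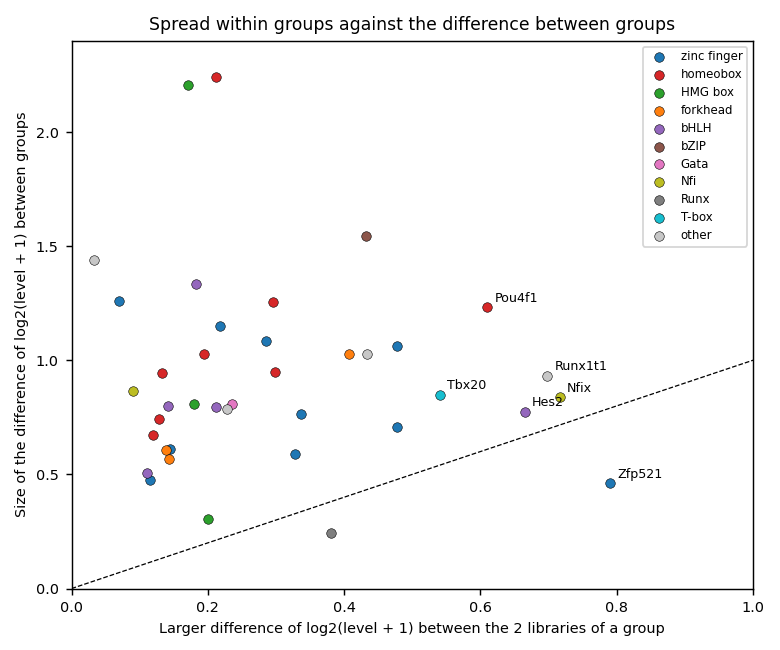
Size of the difference of log2(level + 1) between groups against the larger difference between the 2 libraries of a group, for the 39 members coloured by class, with the line of equality dashed. For 37 members the group difference is the larger, *Runx1* and *Zfp521* lie below the line, and the 6 named points have libraries more than 0.5 apart within a group. The share over all rows was not counted.

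Libraries of a group agreed for most members. The group difference was larger than both gaps between libraries of a group for 37 of the 39 members. This was not counted over all rows, which were picked for a difference between these libraries. Of all rows, 1.63% had overlapping groups. In 6 members (*Zfp521*, *Nfix*, *Runx1t1*, *Hes2*, *Pou4f1* and *Tbx20*) the libraries of a group were more than 0.5 apart on the log2(level + 1) scale. The median gap of the members was 0.121 between the *scramble* libraries and 0.171 between the *Rhox6* shRNA libraries, against 0.135 and 0.127 over all rows.

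**Figure D4:**
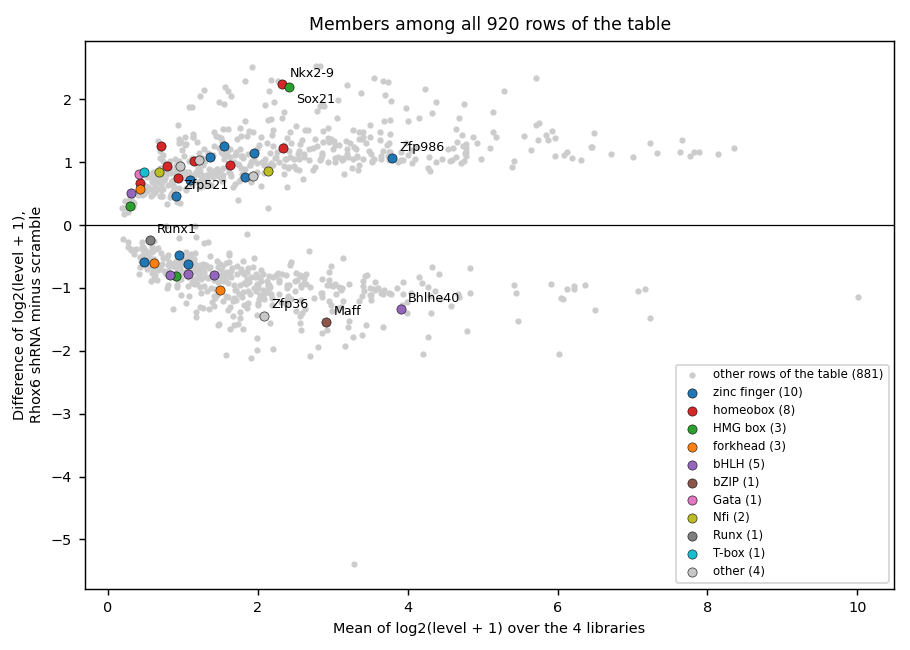
Difference of log2(level + 1), *Rhox6* shRNA minus *scramble*, against the mean of log2(level + 1) over the 4 libraries, for the 39 members coloured by class and the other 881 rows in grey. Most members lie at the left, with 20 of 39 below a mean level of 1 in *scramble* cells, and *Runx1* and *Zfp521* lie at −0.24 and 0.46.

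Some members lay near another listed gene, and these moved the same way as that gene. For 11 of the 39 members, another listed gene lay within 100000 bp on GRCm38 (GENCODE M21). In 11 of these 11 the nearest such gene had a mean difference in the same direction. Of the 919 listed rows with a place in this annotation, 247 had a listed gene within this distance, and 215 of them (87%) shared its direction. Both shares in the members were thus near those of the listed genes as a whole. *Evx1* and *Hoxa10* are each other's nearest listed gene, 72644 bp apart, so the 11 make 10 pairs.

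*Tbx3os1* overlaps *Tbx3* on the opposite strand of chromosome 5. It was at 0.89 and 0.4 in *scramble* and at 1.98 and 2.7 in *Rhox6* shRNA cells (log2 difference 1.03, limma adjusted p = 0.00525). *Tbx3* was at 31.36 and 28.12 against 97.12 and 90.09. Reads of the overlap cannot be told apart where strand is not recorded, and the share of the rise that this gives was not tested. *Nkx2-9* has *Gm38103* at 913 bp on the same strand of chromosome 12, which was at 0.27 and 0.14 in *scramble* and at 2.04 and 2.15 in *Rhox6* shRNA cells. Both rose, at log2 differences of 2.24 and 1.36.

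*Hoxb9* and the microRNA gene *Mir196a-1* are 6192 bp apart, and *Mir196a-1* rose from 1.04 and 0.98 to 2.81 and 2.14. *Zfp711* and *Pof1b*, 3361 bp apart on chromosome X, both rose. Among the falling members, *Hes2* lay 6496 bp from *Espn*, which went from 8.87 and 8.7 to 2.6 and 2.62, and *Foxr1* lay 11579 bp from *Upk2*, which went from 1.45 and 2.64 to 0.65 and 0.54. The neighbours *Baiap2l1* of *Bhlha15*, *Dll3* of *Zfp36* and *Clic6* of *Runx1* fell too, the last beside a member that did not pass. In all, the members lay on 17 chromosomes, and 18 of the 39 overlapped a gene on the opposite strand.

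Other transcription factor genes moved in both directions. Of 210 transcription factors outside the member names, 27 were among the rows, and 15 rose, 11 fell and *Hif3a* did not pass, with a median log2 difference of 0.599. These shares were close to the 53.7% and 42.9% of all rows. Among them *Sall3*, a zinc finger gene of neural and limb development, rose from 1.04 and 1.19 to 8.29 and 8.32, and *Vax2*, a homeobox gene of the ventral eye, from 0.81 and 1.17 to 4.76 and 4.8. *Mef2b* went from 4.13 and 6.45 to 0.65 and 1.36, and *Ddit3*, a stress-induced bZIP gene, from 36.64 and 36.51 to 8.12 and 8.11. Of the 8 genes left out by the rule, 7 rose and *Gata6* fell.

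Markers of other cell types were few among the rows. Of 8 neural progenitor markers, 4 were listed, and all 4 rose, with a summed level of 4.07 to 4.44 in *scramble* and of 14.74 to 15.99 in *Rhox6* shRNA cells. Of 8 primitive endoderm markers, *Cubn*, *Dab2* and *Gata6* were listed and fell, from a sum of 27.85 to 29.61 to a sum of 6.64 to 7.21. Of 12 fibroblast markers, *Twist1* was listed and rose. The listed rows were picked for a difference, and 53.7% of all 920 rose and 42.9% fell in the limma comparison. The contribution of these cell types to the levels of the members was not tested.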

How the data were processed

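RNA-seq of 2 *scramble* and 2 *Rhox6* shRNA libraries of 46C mESCs was analysed, grouped by their sample labels. The authors deposited 1 table of 920 genes that they had called as differential, with a normalized signal (expression level) per library and group mean in an unnamed unit. Bowtie 0.12.2 and mm9 stand in the processing notes of the submitters. How reads were counted, with which gene annotation, is not given in the sources used here. The authors' own ratio (fold change), its log2 and their p-values, raw and adjusted, are further deposited columns and were not used. Without read counts, the depth and the precision it gives are unknown, and the 2 libraries per group limit the precision.

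The groups were compared on log2(level + 1) by limma (version 3.58.1, R 4.3.3). Its variance prior followed the mean level, and p-values were adjusted over the 920 rows by Benjamini-Hochberg. The fit was also run on simulated data in which most rows had no difference. The listed rows were all picked for a difference, so that run does not vouch for their p-values. The members and lists were chosen by name with earlier results of these data known. Genes were named by a rule: the 12 highest levels, the 8 largest rises and falls, members that did not pass or were at 0 in both libraries of a group, and families of 3 or fewer. It gave 32 of the 39, and the other 7 are described with them. Gene places came from GENCODE M21 (GRCm38) and promoter windows from RefSeq (GRCm38.p6). No coordinates of mm9 were used. The alternatives were 2 other pseudocounts (0.1 and 0.5), a filter on low levels, libraries scaled to equal sums, limma without a trend, a replicate block, and leaving out each library. A result for a withheld gene is not reported here.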

Additional observations from a re-analysis of the deposited data

How the results depend on the processing

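No member changed direction in any of the 10 alternatives that held it. Of the 37 members that passed, 28 passed in each alternative that held them, and *Hes2*, *Nfix*, *Runx1t1*, *Sox6*, *Tbx20*, *Zfp174*, *Zfp607b*, *Zfp677* and *Zscan4a* lost their call in at least 1. The count of rising members was 20 to 24 and that of falling members 10 to 13 when 1 library was left out, against 25 and 12 with all. These fits rest on a single library in a group, which is assumed to vary like the others. Scaling the libraries to equal sums of the listed rows lowered the median log2 difference of all rows by 0.212 (a shift of −0.212) and left the counts at 25 and 12. With a mean level of at least 1 in either group, 30 members remained in the fit, 19 rising and 10 falling. A gene could pass this limit through its higher group alone, so this is no separate check of a direction. The replicate numbers are shared between groups, and the deviations of same-numbered libraries had a correlation of −0.0445 over 920 rows. With 2 libraries in each group, this cannot show whether same-numbered libraries shared a culture or batch. With the replicate block the counts stayed at 25 and 12, and the block changed no call of a member named by the rule.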
